A study of Mus musculus with 6 samples.

Results

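Of the 59485 genes in the deposited table of P4 sciatic nerve transcripts, 83 carry the symbol of a nuclear-encoded subunit of oxidative phosphorylation (OXPHOS), the machinery of the inner mitochondrial membrane that makes most of a cell's ATP. They were picked by a rule on the symbol (Nduf with a, b, c, s or v and a number, Sdha to Sdhd, Uqcr, Cox from 4 to 8, and Atp5) that uses no measured value, and the symbol also gave the complex. By this rule complex I holds 36 of them, complex II 4, complex III 8, complex IV 18 and complex V 17. RNA-seq libraries came from the sciatic nerves of 3 wild-type controls and 3 *Ht-PA-Cre; Adar1fl/fl;R26R* mutants at postnatal day 4, 1 library per animal. *Ht-PA-Cre* acts in neural crest cells, from which Schwann cells derive, *Adar1fl/fl* is the floxed allele of the RNA-editing enzyme ADAR1, and *R26R* is the reporter of recombined cells. The labels give the controls as wild-type only. By the breeding described in the study's methods, animals called wild-type carried *R26R* and 1 or 2 floxed *Adar1* alleles without Cre, and heterozygotes with Cre also served as controls in other experiments, so the alleles of these 3 control animals are not known. A nerve also holds cells outside the neural crest lineage (endothelial cells, blood, part of the connective tissue). In such bulk tissue, fewer cells of a type and less RNA per cell cannot be told apart.

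Complex I takes electrons from NADH and complex II from succinate, and both pass them to ubiquinone. Complex III hands them on to cytochrome c and complex IV to oxygen, while complex V, the ATP synthase, uses the proton gradient that complexes I, III and IV build. All subunits of complex II are encoded in the nucleus, whereas the other complexes combine nuclear subunits with a few encoded in mitochondrial DNA. The mitochondrial DNA-encoded subunits were not analysed here. Several complex IV subunits exist in a widespread form and a form of heart and skeletal muscle. In peripheral nerve, mitochondria lie both in axons, whose cell bodies are elsewhere, and in Schwann cells, whose respiratory chain is known to be needed for the upkeep of axons.

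Values are read counts divided by a size factor for each library, and counted reads ranged from 50938349 to 78250094 per library, of which 458121 to 625623 lay on the 83 subunit genes. They were compared as log2(value + 1) with limma over the 25802 genes whose mean was at least 10 in at least 1 genotype, with p-values adjusted over all of them by the Benjamini-Hochberg method. Errors are SDs over 3 libraries or standard errors (SE) of the fit, and 3 libraries against 3 cannot give an exact two-sided permutation p below 0.1. The gene *Adar* itself was higher in the mutant-labelled libraries, by 2.72 on the log2 scale (SE 0.20, adjusted p = 4.1e-05), which goes against the deletion in their label, so all directions below are those of the labels. The first principal component separated the genotypes. Judged by *Xist* and 4 Y-linked genes, 2 control and 1 mutant-labelled animals were female. Schwann cell markers (5 of 6) and erythroid markers (6 of 6) were lower in the mutant-labelled libraries, with summed values of 25444 to 36923 against 77303 to 81986 and of 5128 to 15712 against 55048 to 77123 in the controls. Macrophage markers were mixed (3 of 6 lower, 1 higher), 2 of 5 fibroblast markers were lower, 2 of 6 endothelial markers were higher, and 9 of 12 skeletal muscle markers were higher. *Cd8a* and *Cd3d*, of the T cell list, had no reads in any control and reads in every mutant-labelled library. Of the 4 T cell markers tested, *Cd8a* rose, on values of 20.4, 19.3 and 5.93 in the mutant-labelled libraries, and *Cd3d* was too low to be tested. The other 3, *Cd3e*, *Cd3g* and *Cd4*, had reads in every control, overlapped between the groups and were not called. The part of these cell types in the values of the subunit genes was not tested.

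The transcripts of the respiratory chain were on balance lower in the mutant-labelled nerves, by a modest amount. Among the 81 subunit genes tested, 28 (34.6%) fell and 2 (2.47%) rose at an adjusted p at or under 0.05, while over all tested genes 16.0% fell and 19.0% rose. With a minimum mean of 50, 30 subunit genes (37.0%) fell and 2 rose, while over all genes then tested 21.9% fell and 24.1% rose. The means of the 28 called in the main fit changed by -57.2 to -17.7%. Leaving out control replicate 2 left 17 lower genes and leaving out control replicate 3 left 18, while the other libraries left 20 to 30. With the limits of the study's methods (unadjusted p at or under 0.05 and at least a 2-fold change), 1 subunit gene, *Uqcrh*, fell and 2, *Cox6a2* and *Cox8b*, rose, against 10.4% and 13.9% of all tested genes. The values of 36 subunit genes (44.4%) lay below those of the controls in all mutant-labelled libraries and those of 5 (6.17%) above, where the shares over all tested genes were 23.3% and 25.9%. *Cox7b2* and *Cox8c*, isoforms known from testis, had no reads in any library and were not tested.

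The median log2 fold change of the 81 genes was -0.21, beside 0.03 over all tested genes. In 66 of the 81, the fold change lay below that median of all genes. By complex, the median was -0.16 in complex I, -0.15 in complex II, 0.07 in complex III, -0.37 in complex IV and -0.25 in complex V. Scaling the libraries to the same total, in place of the deposited size factors, raised the median of all genes to 0.20 and turned the sign of the complex II median (0.01), with 0.00 for complex I and -0.05 for the 81 genes. Relative to the median of all genes, the median of the subunit genes was -0.25 on either scale. The same scaling left 13 subunit genes lower (16.0%, beside 12% of all tested genes) and 7 higher (8.64%, beside 24.5%), namely 4 lower and 3 higher in complex I, 1 higher in complex II, 2 lower and 2 higher in complex III, 4 lower and 1 higher in complex IV, and 3 lower in complex V. It moved the share of higher genes among all genes called from 54.3 to 67.1%. Limma without a trend left 11 lower (13.6%) and 0 higher, and since 12.4% of all tested genes fell in that fit, the share of falls among the subunit genes was then near that of all genes. Of the 11, complex I held 4, complex III 2, complex IV 3 and complex V 2.

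**Figure D1:**
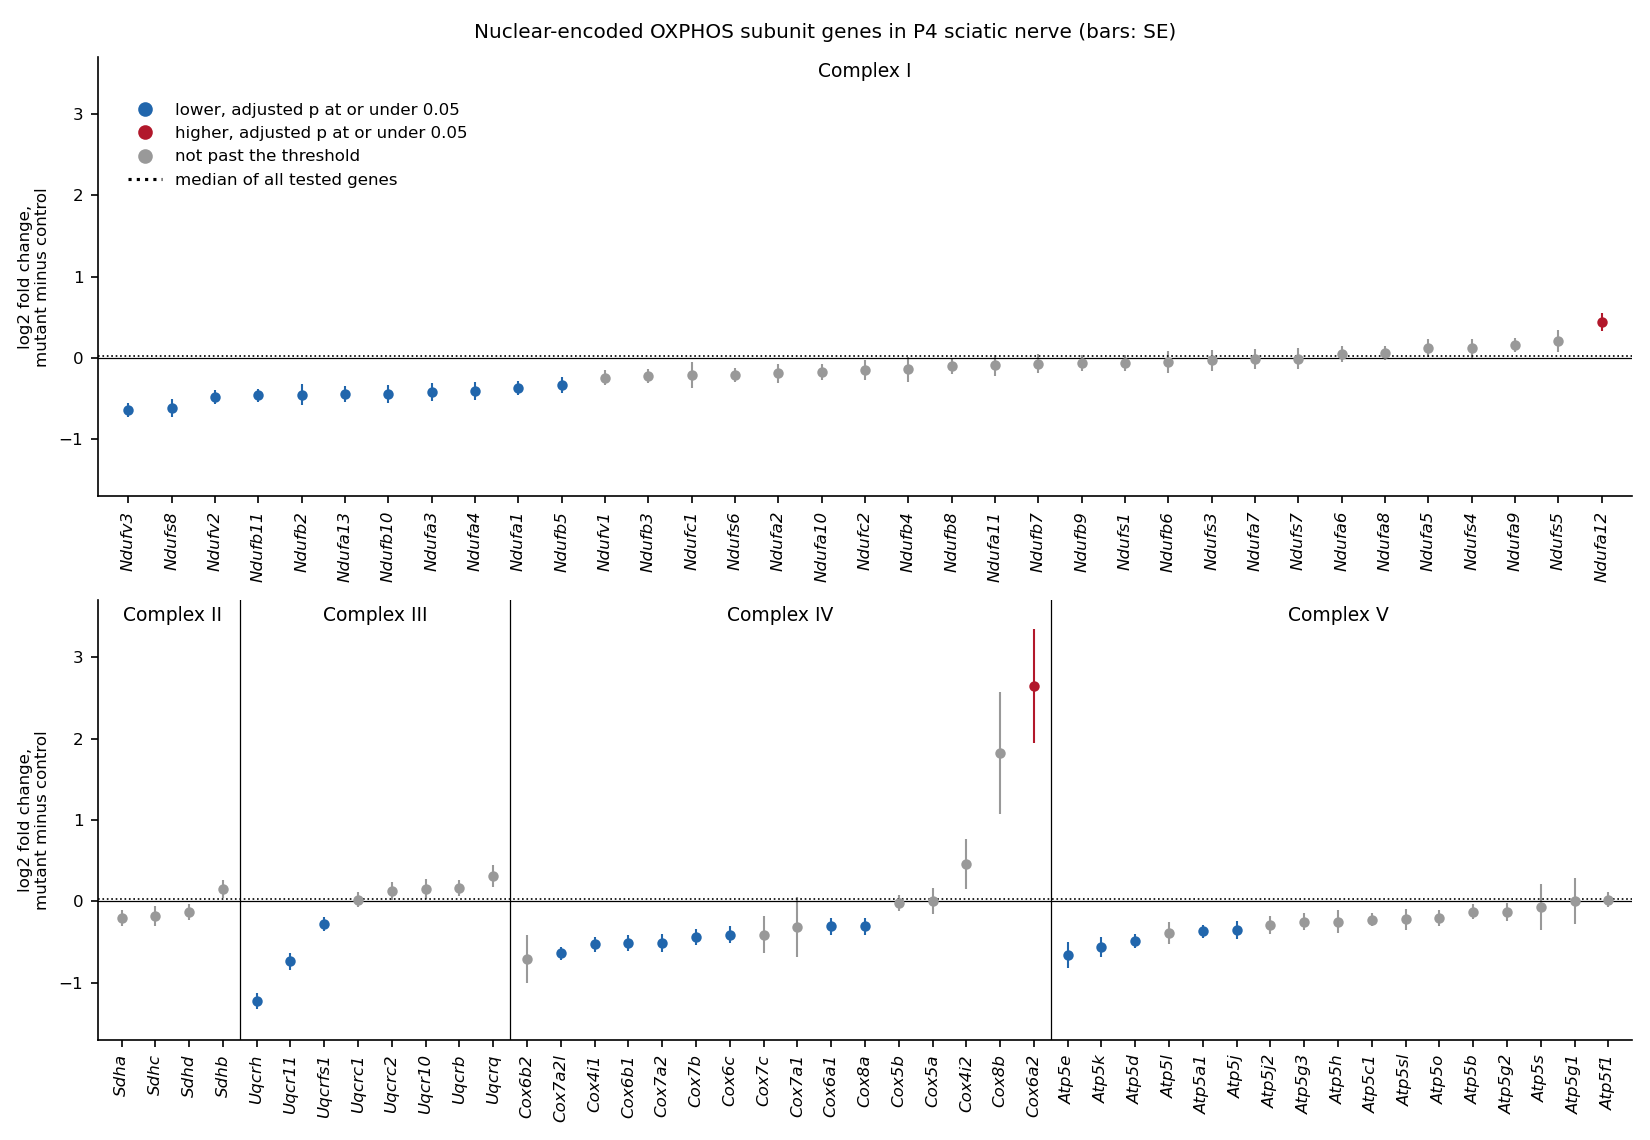
The log2 fold change (mutant-labelled minus control-labelled, y axis) of 80 of the 81 tested subunit genes is plotted by complex, with SE bars and coloured by limma's call at an adjusted p at or under 0.05. Most points lie below the dotted line of the median of all tested genes (0.03), *Uqcrh* is the lowest at -1.23, and *Cox6a2* the highest at 2.64.

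*Uqcrh*, the hinge protein through which complex III docks cytochrome c, fell most of all subunit genes. The gene lies at chromosome 4, 116066963 to 116075070 (mm10), and its values were 9641, 10192 and 10068 in the control-labelled and 3811, 4351 and 4628 in the mutant-labelled nerves. Its log2 fold change was -1.23 (SE 0.10, adjusted p = 5.21e-05), and every mutant-labelled value lay under the lowest control. *Uqcr11*, the smallest subunit of the complex, fell with a log2 fold change of -0.74 (SE 0.10, adjusted p = 0.000851), with values of 5194, 5578 and 5816 in the control-labelled and 2968, 3477 and 3481 in the mutant-labelled nerves. *Uqcrfs1*, the Rieske iron-sulfur protein that carries electrons within complex III, was called at -0.28 (SE 0.09, adjusted p = 0.0387), on values of 4842, 5033 and 5460.4 in the control-labelled and 4208, 4246 and 4172 in the mutant-labelled nerves. The last call was the least firm of the complex, since 8 of 17 alternative fits made it.

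The remaining 5 genes of complex III had positive log2 fold changes that did not pass the test. *Uqcrc1* and *Uqcrc2*, the large core proteins, had log2 fold changes of 0.02 and 0.13, and the small subunits *Uqcr10*, *Uqcrb* and *Uqcrq* had 0.15, 0.16 and 0.31. *Uqcrq* had values of 4018, 4822 and 5164 in the control-labelled and 5249, 5419.6 and 6713 in the mutant-labelled nerves, all mutant-labelled ones above the controls (adjusted p = 0.105). Subunits of 1 complex thus ranged from -1.23 to 0.31 on the log2 scale, against SEs of 0.09 to 0.13. *Uqcrb* and *Uqcrq* were called higher when libraries were scaled to the same total.

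**Figure D2:**
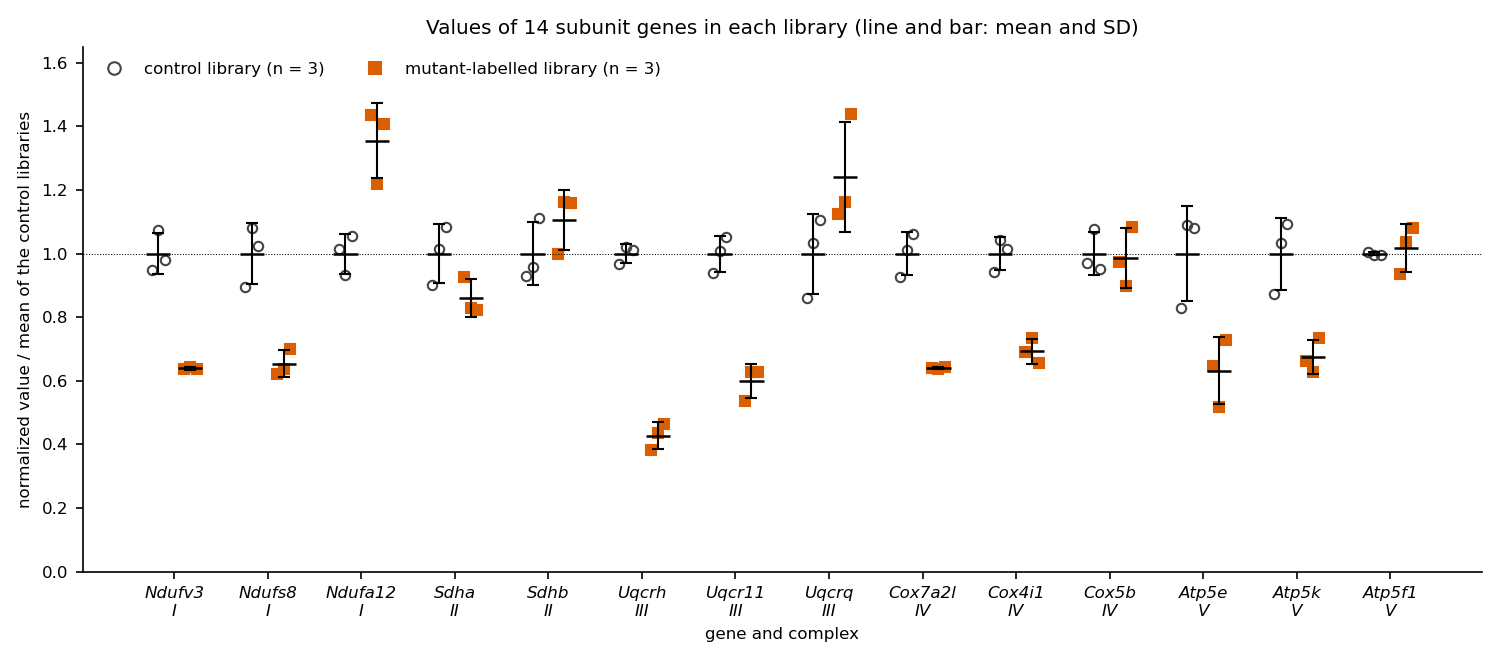
The value of 14 subunit genes in each library, divided by the mean of the control libraries (y axis), is plotted for control (open circles) and mutant-labelled libraries (squares), with the mean and SD of 3 libraries. The mutant-labelled points of *Uqcrh*, *Uqcr11*, *Cox7a2l* and *Ndufv3* lie apart from the controls, while those of *Sdhb*, *Cox5b* and *Atp5f1* overlap them.

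Complex I had 12 lower and 1 higher of 36 genes, and 29 of the 36 fold changes were negative. Without control replicate 2 the lower genes numbered 7, and without control replicate 3 they numbered 6. *Ndufv3*, an accessory subunit of the NADH-binding module, fell most in this complex, with a log2 fold change of -0.64 (SE 0.09, adjusted p = 0.000871). Its values were 5236, 5931 and 5415 in the control-labelled and 3523, 3555 and 3519 in the mutant-labelled nerves, and the mutant-labelled ones lay within 1 narrow band. *Ndufs8*, an iron-sulfur subunit on the way to the ubiquinone site, changed by -0.61 (SE 0.11, adjusted p = 0.00308), from 3496, 4229 and 4008 to 2437, 2487 and 2744. *Ndufv2*, an iron-sulfur subunit of the NADH-binding module, changed by -0.48 (SE 0.09, adjusted p = 0.00415), from 9319.9, 10354 and 10652 to 7269.6, 6891 and 7566. For all of these genes the groups did not overlap. The reads of *Ndufv2* may be split, since 2 further genes share its position and strand.

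The 7 core catalytic subunits, which hold the flavin, the iron-sulfur clusters and the ubiquinone site, ranged from -0.61 to -0.01, and 3 of them fell, *Ndufs8* and *Ndufv2* included. *Ndufv1*, which binds NADH and the flavin, had a log2 fold change of -0.24 and separate groups without passing limma's test (adjusted p = 0.0589), while DESeq2 called it lower, as did limma with libraries scaled to the same 75th percentile. The median of the core subunits was -0.24 and that of the 29 accessory subunits -0.15, and among the latter 9 fell and 1 rose.

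The other 8 accessory genes that fell were *Ndufb11*, *Ndufb2*, *Ndufb10*, *Ndufa13*, *Ndufa3*, *Ndufa4*, *Ndufa1* and *Ndufb5*, with log2 fold changes from -0.46 to -0.33. *Ndufb11* and *Ndufa1*, subunits of the membrane arm, are encoded on the X chromosome, as is *Cox7b* of complex IV, and these 3 were the X-linked genes of the set. *Ndufb11* changed by -0.46 (SE 0.08, adjusted p = 0.00329), *Ndufa1* by -0.37 and *Cox7b* by -0.44. The uneven number of females in the groups was not entered in the fit, and its part in these values was not tested. *Ndufa4* carries a complex I symbol but is today assigned to complex IV, and its log2 fold change was -0.40 (SE 0.11, adjusted p = 0.0199).

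*Ndufa12*, an accessory subunit that joins the NADH-binding module late in assembly, was the single complex I gene of the symbol rule that rose. *Ndufab1*, which lies outside that rule, is given below. Its values were 2868, 2637 and 2986 in the control-labelled and 4069, 3452 and 3982 in the mutant-labelled nerves, a log2 fold change of 0.44 (SE 0.11, adjusted p = 0.013), and all mutant-labelled values lay above the controls. The call was lost without control replicate 2 (adjusted p = 0.0602) and with limma's fit without a trend (adjusted p = 0.0655). Among the alternatives, the fold change without that library was 0.39. *Ndufa9*, a subunit next to the ubiquinone site, also had separate groups, with a log2 fold change of 0.16 that did not pass the test (adjusted p = 0.226).

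Complex II (succinate dehydrogenase) had none of its 4 genes called by limma, by edgeR or by DESeq2, and none had an unadjusted p under 0.05 in any of these fits. *Sdha*, the flavoprotein that oxidizes succinate, had values of 9981, 11259 and 12026 in the control-labelled and 10293, 9199 and 9136 in the mutant-labelled nerves and a log2 fold change of -0.21 (SE 0.10, adjusted p = 0.133). *Sdhb*, the iron-sulfur subunit, had values of 5440.1, 5606 and 6507 in the control-labelled and 5842, 6802 and 6791 in the mutant-labelled nerves and a log2 fold change of 0.15 (SE 0.11, adjusted p = 0.322). The membrane anchors *Sdhc* and *Sdhd* had log2 fold changes of -0.18 and -0.13. In all 4 genes the groups overlapped, with SEs of 0.10 to 0.12. *Sdhb* was called higher when the libraries were scaled to the same total (0.31, adjusted p = 0.0458), and 2 further genes share the position and strand of *Sdhc*.

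Complex IV (cytochrome c oxidase) had the lowest median, with 8 of 16 tested genes lower and 1 higher (4 lower without control replicate 2). *Cox7a2l*, known for joining complexes III and IV into supercomplexes, changed by -0.64 (SE 0.08, adjusted p = 0.000698). Its values were 12213, 13299 and 13972 in the control-labelled and 8435, 8404 and 8458 in the mutant-labelled nerves. The mutant-labelled ones were close to one another and all under the controls. *Cox4i1*, the widespread form of the largest nuclear-encoded subunit, had values of 17415, 19279 and 18755 in the control-labelled and 12761, 13569 and 12119 in the mutant-labelled nerves and changed by -0.53 (SE 0.09, adjusted p = 0.00206). *Cox6b1*, which faces the intermembrane space, changed by -0.51 (SE 0.10, adjusted p = 0.00465), and *Cox7a2*, the widespread form of subunit 7a, by -0.51 (SE 0.11, adjusted p = 0.00836). The other 4 that fell were *Cox7b*, *Cox6c*, *Cox6a1* and *Cox8a*, small membrane-spanning subunits, with log2 fold changes from -0.44 to -0.31.

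Other subunits of complex IV did not pass the test. *Cox5a* and *Cox5b*, peripheral subunits on the matrix side, had log2 fold changes of 0.00 and -0.02 with overlapping groups. *Cox7c* stood at -0.41 on values of 474, 693 and 713 in the control-labelled and 538, 358 and 518 in the mutant-labelled nerves, and did not pass the test (adjusted p = 0.199). *Cox6b2*, a form of subunit 6b known from testis, had values of 319.8, 443 and 455 in the control-labelled and 182, 383 and 212 in the mutant-labelled nerves. Its log2 fold change was -0.71 (SE 0.30, adjusted p = 0.104), with mutant replicate 2 inside the range of the controls, and without that library it passed (-1.03, adjusted p = 0.0183). Within the summed values of all subunit genes, complex IV held 18.4 to 18.6% in the control-labelled and 16.9 to 17.4% in the mutant-labelled libraries, while complex II held 5.42 to 5.55% and 5.69 to 6.31%. The shares of these complexes did not overlap between the groups, while those of complexes I (30.8 to 31.5% and 31.3 to 32.7%), III (8.51 to 8.79% and 8.74 to 9.21%) and V (35.8 to 36.6% and 35.5 to 36.5%) did. Such shares of reads do not depend on the scaling of a library and are not corrected for transcript length.

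Of 3 muscle forms of complex IV subunits, 1 rose, while their widespread counterparts *Cox6a1*, *Cox7a2* and *Cox8a* fell. The falls of *Cox6a1* and *Cox8a* were called in 7 and 9 of 17 alternative fits, and that of *Cox7a2* in 16. *Cox6a2*, the form of subunit 6a in heart and skeletal muscle, had values of 339, 66.1 and 251 in the control-labelled and 853, 584 and 2780.3 in the mutant-labelled nerves. It rose by a log2 fold change of 2.64 (SE 0.70, adjusted p = 0.0191). All mutant-labelled values exceeded the controls, and mutant replicate 3 was by far the highest. Without mutant replicate 3 its log2 fold change was 1.98 and the call was lost (adjusted p = 0.0674). *Cox8b*, the muscle form of subunit 8, had values of 151, 37.8 and 50.7 in the control-labelled and 91.7, 208 and 685 in the mutant-labelled nerves and a log2 fold change of 1.82 (SE 0.75, adjusted p = 0.0953). Its groups overlapped, and DESeq2 called it (2.04, adjusted p = 0.00785). *Cox7a1*, the muscle form of subunit 7a, had values of 127, 109.6 and 156 in the control-labelled and 77.1, 83.0 and 172 in the mutant-labelled nerves, a log2 fold change of -0.32 (SE 0.37, adjusted p = 0.538) and overlapping groups.

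Skeletal muscle markers were higher in the mutant-labelled libraries as well. The summed value of 12 such markers (among them *Acta1*, *Ckm* and *Myh8*) was 8177 to 41136 in the control-labelled and 54808 to 393333 in the mutant-labelled libraries, lowest in control replicate 2 and highest in mutant replicate 3. Of the 12, 9 were higher at an adjusted p at or under 0.05, and all 12 had reads in every library. *Cox6a2* ranked the 6 libraries in the same order as this sum. *Cox8b* did not, since its value in mutant replicate 1 (91.7) lay below those in control replicate 1 (151) and mutant replicate 2 (208), whereas the muscle sum of mutant replicate 1 (119604) lay above theirs (41136 and 54808). Each of 7 adipocyte markers overlapped between the groups, and their sum ranged from 5384 to 12331 in the control-labelled and 3238 to 26374 in the mutant-labelled libraries. Of these, *Cidea* and *Ucp1* mark brown fat, another tissue with *Cox8b* and *Cox7a1*. *Cidea* had values of 36.6, 0.0 and 5.07 in the control-labelled and 38.6, 25.1 and 67.3 in the mutant-labelled nerves, a log2 fold change of 2.76 (SE 1.21, adjusted p = 0.113). *Ucp1* had values of 22.2, 1.89 and 12.7 and of 0.0, 0.0 and 13.8, a log2 fold change of -1.98 (SE 1.35, adjusted p = 0.29). The part of muscle and brown fat in the values of *Cox6a2* and *Cox8b* was not tested. Without mutant replicate 3, 24 subunit genes fell and the median was -0.24.

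**Figure D3:**
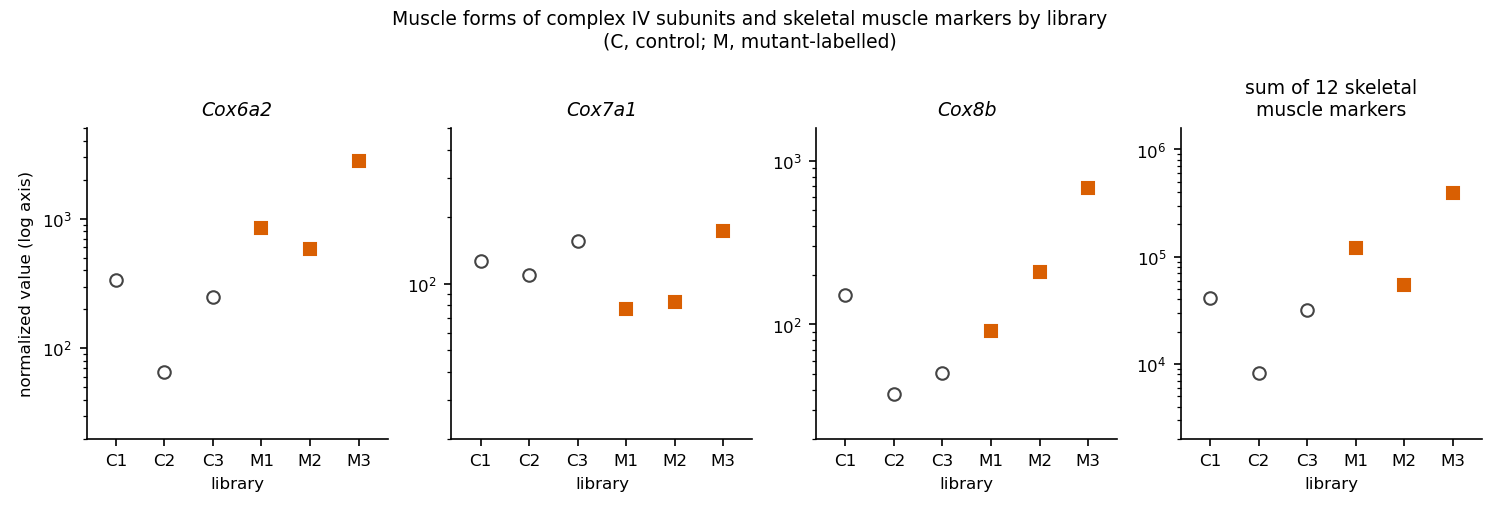
The values of *Cox6a2*, *Cox7a1* and *Cox8b* and the sum of 12 skeletal muscle markers (y axes, logarithmic) are plotted for each control (C) and mutant-labelled (M) library. The order of the libraries in *Cox6a2* is that of the muscle markers, with control replicate 2 lowest and mutant replicate 3 highest.

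The ratio of the reads of 2 isoforms in the same library does not depend on scaling. It is not corrected for transcript length, so it compares libraries and not the levels of the isoforms. The ratios of 7 pairs were compared by an exact two-sided permutation test over the 6 libraries, for which 0.1 is the smallest p and 0.233 the smallest after adjustment over the 7 pairs. The reads of *Cox6a2* amounted to 0.470 to 2.73% of those of *Cox6a1* in the control-labelled and 5.09 to 27.3% in the mutant-labelled libraries. Those of *Cox4i2*, the form of subunit 4 known from lung and induced by low oxygen, amounted to 0.365 to 0.523% of those of *Cox4i1* in the controls and 0.783 to 1.05% in the mutant-labelled libraries, a difference of 0.99 in the log2 ratio. *Cox4i2* itself had values of 91.1, 87.9 and 68.4 in the control-labelled and 108, 142 and 95 in the mutant-labelled nerves, and its log2 fold change of 0.46 did not pass the test (adjusted p = 0.281). Both ratios separated the groups (each exact p = 0.1), as did *Atp5g2* to *Atp5g3*, which differed by 0.12. The ratios of *Cox6b2* to *Cox6b1*, *Cox7a1* to *Cox7a2*, *Cox8b* to *Cox8a* and *Atp5g1* to *Atp5g3* overlapped between the groups (exact p from 0.2 to 0.8).

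Complex V (ATP synthase) had 5 lower of 17 genes, and 15 of 17 fold changes were negative. Without control replicate 1, 8 genes were lower, and with libraries scaled to the same 75th percentile 9 were. *Atp5e*, the epsilon subunit of the central stalk, changed by -0.66 (SE 0.16, adjusted p = 0.0118), with values of 4725, 6219 and 6165 in the control-labelled and 3696, 2958 and 4162 in the mutant-labelled nerves. *Atp5k*, subunit e of the membrane part, which joins the synthase into dimers, changed by -0.56 (SE 0.12, adjusted p = 0.00627), with values of 3919.9, 4628 and 4898 in the control-labelled and 2972, 2818 and 3289 in the mutant-labelled nerves. *Atp5d*, the delta subunit of the central stalk, changed by -0.49 (SE 0.09, adjusted p = 0.00469), with values of 14953, 17603 and 17391 in the control-labelled and 12075, 12197 and 11239 in the mutant-labelled nerves. The groups were separate in all of these. *Atp5a1*, the alpha subunit of the catalytic head, and *Atp5j*, a coupling factor of the peripheral stalk, fell too, with log2 fold changes of -0.37 and -0.35.

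By part of the synthase, 3 of 5 genes of the catalytic head and central stalk fell (median -0.37). *Atp5b*, the beta subunit that holds the catalytic sites, stood at -0.13 with overlapping groups, and 2 further genes share its position and strand. In the peripheral stalk 1 of 4 fell (median -0.23), and *Atp5f1*, its subunit b, had values of 9713, 9633 and 9635 in the control-labelled and 9029, 10010.3 and 10455 in the mutant-labelled nerves and a log2 fold change of 0.02. Of 3 other membrane subunits, *Atp5k* fell, while *Atp5l* (-0.39, adjusted p = 0.0509) and *Atp5j2* (-0.29, adjusted p = 0.0725) had separate groups and did not pass limma's test. *Atp5l* was called lower by DESeq2, and in 7 of 17 alternative fits in all. *Atp5g1*, *Atp5g2* and *Atp5g3*, which encode the same mature subunit of the rotating ring, had log2 fold changes of 0.00, -0.13 and -0.25. *Atp5g1* was uneven in both groups, with values of 1115, 1243 and 2337 in the control-labelled and 1779, 1595 and 1142 in the mutant-labelled nerves. *Atp5s* and *Atp5sl*, which carry the symbol of the synthase but are not known as its structural subunits, stood at -0.07 and -0.22.

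Taken as 1 sum, the subunit genes took 0.838, 0.884 and 0.899% of all values in the control-labelled and 0.80, 0.810 and 0.865% in the mutant-labelled libraries. Mutant replicate 3, the library with the most muscle transcripts, lay within the range of the controls. The median spread between animals was smaller for these genes than for all tested genes. The median coefficient of variation of a subunit gene was 7.99% among the controls and 8.51% among the mutant-labelled libraries. For all tested genes it was 19.8 and 21.2%. These sets were not matched for the level of their values, and the part of level in this difference was not tested. The median over the members of each library's deviation from the control mean was -0.11, 0.04 and 0.07 in the control-labelled libraries and -0.25, -0.21 and -0.17 in the mutant-labelled libraries, on the log2 scale.

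**Figure D4:**
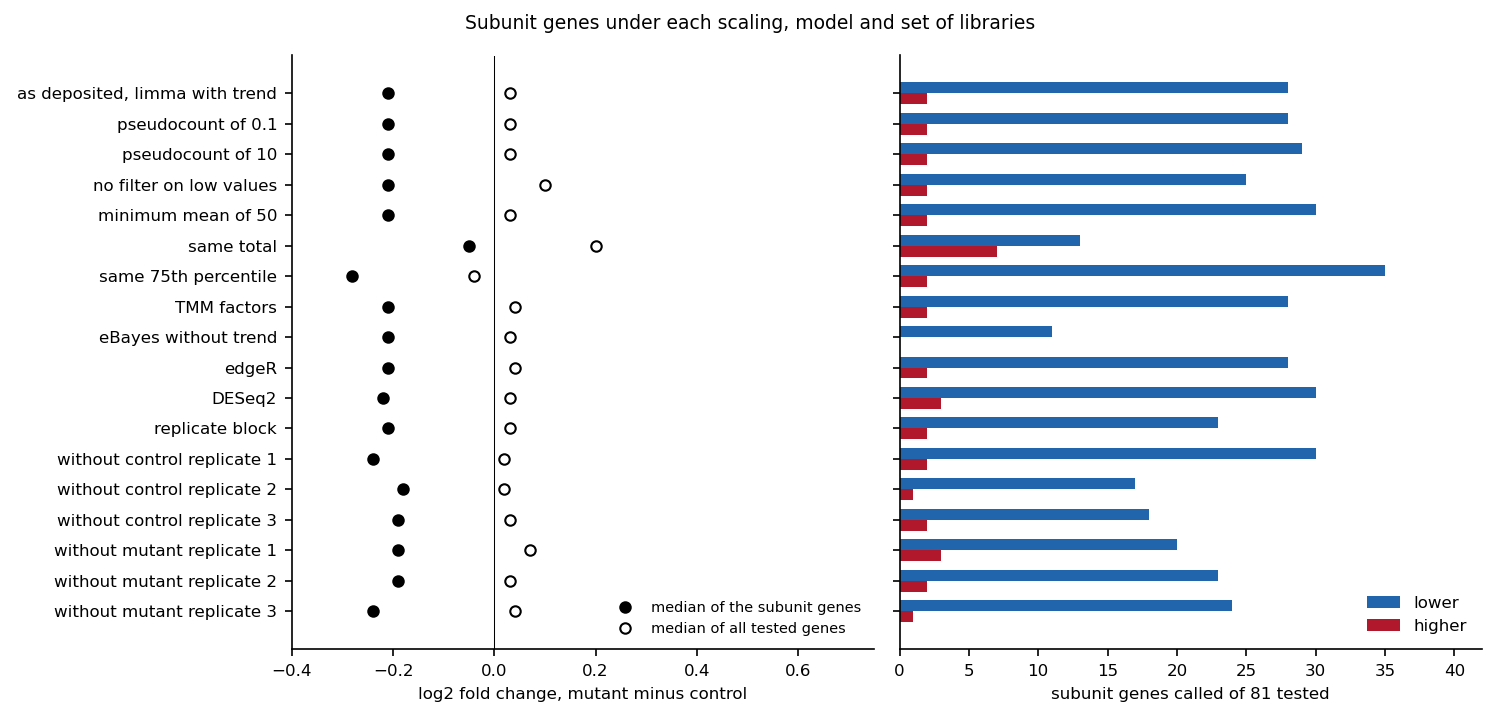
The median log2 fold change of the subunit genes and of all tested genes (left, x axis in log2 units) and the number of subunit genes called lower or higher (right) are plotted for the deposited scaling with limma and for 17 alternative fits. The subunit genes lie below all genes in each of them, with a relative median of -0.31 to -0.21, and the count of lower genes runs from 11 to 35.

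Promoters of 5 genes that fell and 1 that rose are shown because respiratory chain genes share recognition motifs of the ETS factor GABP (also called nuclear respiratory factor 2), of NRF1 and of YY1. The motifs were chosen after the values were seen. RefSeq promoters of GRCm38.p6, from 250 bases before to 50 after the annotated start, were found for 69 of the 83 genes. They were found by symbol or, failing that, by an unambiguous synonym, on the chromosome of the gene. Both strands were searched for CCGGAAG (ETS), TGCGCANGC (NRF1) and AANATGGCG (YY1). A gene with several promoters counted once, and 63 of the 69 had 1. Each line gives 150 bases of this window, 5′ to 3′ on the strand of the gene, from 100 bases before the start to 50 after, with matches on either strand in capitals.

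Uqcrh (chr4:116075021-116075170, minus strand): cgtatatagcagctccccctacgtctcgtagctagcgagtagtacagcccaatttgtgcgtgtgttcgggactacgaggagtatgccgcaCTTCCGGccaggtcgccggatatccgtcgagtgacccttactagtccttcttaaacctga
Uqcr11 (chr10:80406772-80406921, minus strand): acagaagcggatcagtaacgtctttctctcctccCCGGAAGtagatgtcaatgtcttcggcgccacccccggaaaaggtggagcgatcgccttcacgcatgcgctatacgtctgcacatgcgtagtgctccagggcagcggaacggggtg
Cox7a2l (chr17:83514284-83514433, minus strand): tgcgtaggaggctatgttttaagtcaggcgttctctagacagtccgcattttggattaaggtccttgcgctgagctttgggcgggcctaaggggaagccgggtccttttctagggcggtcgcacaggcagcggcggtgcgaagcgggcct
Ndufv3 (chr17:31520015-31520164, plus strand): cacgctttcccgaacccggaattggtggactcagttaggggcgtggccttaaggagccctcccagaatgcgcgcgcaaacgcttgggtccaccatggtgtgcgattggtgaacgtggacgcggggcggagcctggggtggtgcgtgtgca
Ndufs8 (chr19:3912725-3912874, minus strand): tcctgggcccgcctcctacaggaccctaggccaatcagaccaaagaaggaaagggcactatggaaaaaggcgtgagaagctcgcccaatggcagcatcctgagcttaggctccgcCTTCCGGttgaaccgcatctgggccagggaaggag
Ndufa12 (chr10:94198935-94199084, plus strand): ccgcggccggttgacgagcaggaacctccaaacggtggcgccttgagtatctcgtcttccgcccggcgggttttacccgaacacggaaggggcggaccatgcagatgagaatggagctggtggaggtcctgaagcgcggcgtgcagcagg

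The capitals mark the ETS motif in *Uqcrh*, *Uqcr11* and *Ndufs8*, which fell. *Cox7a2l* and *Ndufv3*, which also fell, had no match to any of the motifs in 300 bases, nor did *Ndufa12*, which rose. The ETS motif was present in 16 of 69 subunit genes (23.2%), against 17% of 12475 tested protein-coding genes and 9.93% of all 27025 genes with a promoter. The NRF1 motif was present in 17.4%, against 8.37 and 4.70%, and the YY1 motif in 15.9%, against 4.88 and 2.76%. Of the 24 subunit genes that fell and had a promoter, 37.5% held the ETS motif, 8.33% the NRF1 motif and 8.33% the YY1 motif. The shares among the 43 that were not called were 16.3, 23.3 and 20.9%. These shares describe the letters of a fixed window, and no test was made on them.

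Genes that build the complexes without being part of them were counted in the same way. Among 14 assembly factors of complex I, 4 rose (28.6%) and 3 fell (21.4%), beside 19.0% and 16.0% of all tested genes, with a median of 0.16. Without control replicate 2 or mutant replicate 1 the counts were 2 and 1, and without control replicate 3 or mutant replicate 3 they were 3 and 1. With libraries scaled to the same total 6 rose and none (0) fell, and with limma without a trend 3 rose and none fell. With the replicate number as a block 4 rose and 1 fell. In the main fit, the log2 fold changes of those that moved included 1.09 for *Ndufaf6*, 1.04 for *Foxred1*, -0.42 for *Acad9* and -0.40 for *Ndufaf3*. *Foxred1*, an oxidoreductase-like assembly factor, had values of 2045, 2142 and 2334 in the control-labelled and 4575, 4174 and 4671 in the mutant-labelled nerves (adjusted p = 0.00013). Among 21 assembly factors of complex IV, 5 rose (23.8%) and 1 fell (4.76%), with a median of 0.15, and 10 rose and 1 fell with libraries scaled to the same total. *Cox18*, which inserts the mitochondrially encoded subunit 2 into the membrane, rose by a log2 fold change of 1.86 (SE 0.20, adjusted p = 0.000242), and *Cox17*, the copper chaperone, rose from 1271, 1274 and 1159 to 2414, 2347 and 2629.9 (adjusted p = 0.000226). *Pet100*, another assembly factor, changed by -0.76 (SE 0.13, adjusted p = 0.00289). For complex II 1 rose (*Sdhaf2*, 0.53) and 1 fell (*Sdhaf1*, -0.41) of 4, and for complex III 2 rose (*Ttc19*, 0.62, and *Uqcc1*, 0.57) and 1 fell (*Uqcc3*, -0.59) of 6. The falls in both of these lists were lost (0 called) without control replicate 2 or control replicate 3, with libraries scaled to the same total and with limma without a trend. That of complex II was also lost without mutant replicate 1 or mutant replicate 3 and with the replicate number as a block. In the list for complex III, 1 rose without any single library other than control replicate 1. The 3 for complex V did not pass the test, with log2 fold changes of -0.30 for *Atpaf1*, 0.28 for *Atpaf2* and 0.22 for *Tmem70*.

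The mitochondrial ribosome translates the mitochondrially encoded subunits. Of 77 of its genes, 31 rose (40.3%) and 10 fell (13%), beside 19.0% and 16.0% of all tested genes, with a median of 0.24. Without control replicate 2 the counts were 19 and 6, and without control replicate 3 they were 23 and 6. The largest rises were *Mrpl1* (1.54) and *Mrpl32* (1.09), and the largest falls *Mrpl34* (-1.08) and *Mrps21* (-0.88). The medians of these lists for complexes I and IV and for the ribosome stayed above 0 in all 17 alternative fits, while the ribosome's count of rises ran from 15 to 45 and that of falls from 3 to 11. Of 11 regulators of mitochondrial biogenesis, 4 rose (36.4%, beside 19.0% of all tested genes) and none (0) fell. Those that rose were the coactivator *Pprc1* (1.07), *Tfam* (0.70), which packs mitochondrial DNA, *Tfb1m* (0.64) and *Gabpb1* (0.44), a subunit of GABP. Without control replicate 2, 2 of the 11 rose, and with libraries scaled to the same 75th percentile 3 rose and 2 fell. *Nrf1* and *Gabpa* had log2 fold changes of 0.03 and 0.07 with overlapping groups.

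Of 13 genes of the tricarboxylic acid cycle, which feeds NADH and succinate to the chain, 1 rose (*Dld*, 0.37) and 2 fell (*Ogdh*, -0.42, included). These were 7.69% and 15.4%, beside 19.0% and 16.0% of all tested genes, so the share of falls was near that of all genes. The median was -0.12, or 0.04 with libraries scaled to the same total, when 3 rose and none (0) fell. Limma without a trend called none (0) of the 13. None (0) of them rose without any 1 of the control libraries, without mutant replicate 3, with the replicate number as a block or with libraries scaled to the same 75th percentile (3 lower), and 1 fell without control replicate 3. The 6 respiratory chain genes listed outside the symbol rule were also mixed, with 2 that rose (33.3%) and 1 that fell (16.7%). Whichever library was left out, 1 of the 6 rose (0 with limma without a trend). Cytochrome c (*Cycs*) rose from 3264, 3482 and 3752 to 4288, 4856 and 5300.4, a log2 fold change of 0.46 (SE 0.11, adjusted p = 0.0127), and *Ndufab1*, the acyl carrier protein within complex I, by 0.28 (SE 0.09, adjusted p = 0.0387). *Atpif1*, the inhibitor of the ATP synthase, fell from 9894, 10901 and 10347 to 6957, 7795 and 7187, a log2 fold change of -0.51 (SE 0.09, adjusted p = 0.00274). *Cyc1*, the cytochrome subunit of complex III to which *Uqcrh* binds, had values of 6173, 7774 and 8030.3 in the control-labelled and 6816, 6546 and 6983 in the mutant-labelled nerves and was not called (-0.10, adjusted p = 0.524).

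**Figure D5:**
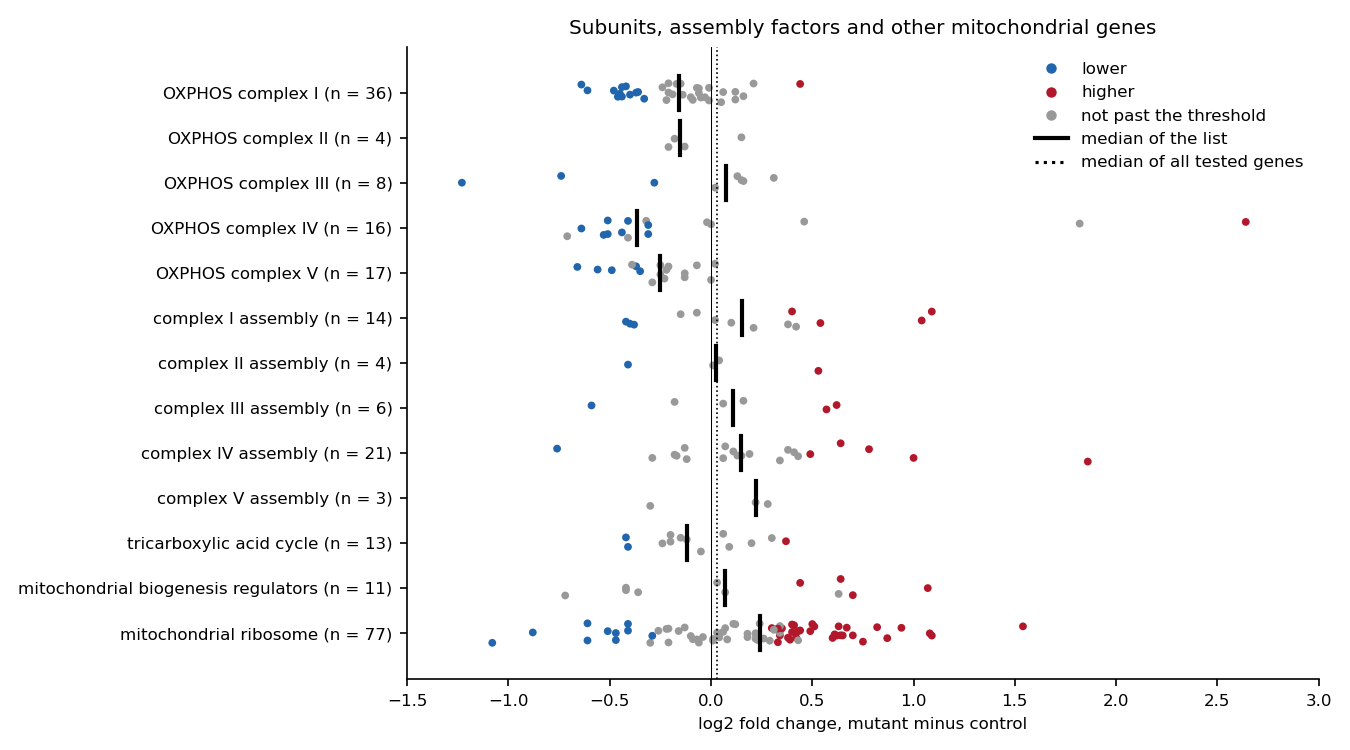
Each point is the log2 fold change (mutant-labelled minus control-labelled, x axis) of 1 gene, grouped by complex, assembly factor list or other mitochondrial list, and bars mark medians. The medians of complexes I, II, IV and V lie to the left of the dotted median of all tested genes (0.03), and those of the assembly factors of complexes I and IV (0.16 and 0.15) and of the mitochondrial ribosome (0.24) lie to its right. The median of the 15452 tested protein-coding genes, not drawn, was 0.13, close to those of these assembly factors.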

How the data were processed

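The authors mapped the oriented paired-end reads to mm10 with STAR 2.4.0, counted reads on constitutive regions of FAST DB genes, and deposited a signal per gene and library, the count divided by a DESeq2 size factor. Replicates were not pooled. All values came out as whole reads within 0.1 after division by the value of a single read, and edgeR and DESeq2 used these reads. The study tested counts with DESeq2, and since the deposited values are normalized, limma (lmFit, eBayes with trend) on log2(value + 1) was the main test, over genes with a mean of at least 10 in at least 1 genotype. The groups and replicate numbers came from the sample labels. The code of the fits was checked on simulated counts with planted changes and the same dispersion for every gene. Such counts lack the uneven spread of these libraries, so the check does not show how well the fits suit them. Genes named are the largest changes of each complex, isoform pairs, complex II, and others chosen to complete a complex after their values were seen. The symbol rule uses no measured value, but this set of genes and the lists were chosen with earlier results of these data known. Values were not corrected for transcript length, so ratios and shares of reads compare libraries, not the levels of genes. Subunit genes have processed copies that can share reads, and 8 overlap another gene on their strand. Results for a few individual genes were left out and are not reported here. R 4.3.3, limma 3.58.1, edgeR 4.0.16, DESeq2 1.42.0 and Python 3.11.15 were used.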

Additional observations from a re-analysis of the deposited data

How the results depend on the processing

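Of the 28 lower subunit genes, 11 were called in every one of the 17 alternative fits and all 28 kept their sign in each, while the 2 higher genes kept their sign but neither was called in all. Libraries scaled to the same total gave 7 higher and 13 lower genes, a median of -0.05, and medians of 0.00, 0.01, 0.24, -0.20 and -0.09 for complexes I to V. Limma without a trend gave 0 higher genes (edgeR 2, DESeq2 3, and 4 at an unadjusted p under 0.05 with the trend) and 11 lower (13.6%, beside 12.4% of all tested genes), with 1 higher at the limits of the study, as did a pseudocount of 0.1. Without the muscle forms *Cox6a2*, *Cox7a1* and *Cox8b*, 1 gene was higher and none (0) passed the limits of the study upward. Leaving out 1 library at a time gave 1 to 3 higher and 17 to 30 lower genes, with 1 to 2 higher and 1 to 2 lower at the limits of the study, and a median of -0.47 to -0.28 for complex IV. The lowest counts of lower genes came without control replicate 2 (17) and control replicate 3 (18), 1 higher gene was called without control replicate 2 or mutant replicate 3, and the second lower gene at the limits of the study came without mutant replicate 2. Over the 29 genes named by rule, 451 results kept their side of the threshold, 36 lost a call and 6 gained one. No sign changed where a gene was called in either fit (0), and 3 genes that were not called changed sign, *Atp5g1* in 7 fits (-0.20 to 0.33 over all fits) and *Atp5g2* and *Sdhd* with libraries scaled to the same total. Same-numbered libraries did not deviate together (r from -0.0619 to 0.00891), and with the replicate number as a block 23 lower and 2 higher genes were called. Leaving out members that overlap another gene on their strand was chosen after seeing the data and changed no count by over 1.5 times. No subunit gene shared its entry with another symbol, so leaving out such entries changed nothing. At this number of libraries, the smallest fall called was a change of the mean of -17.7%.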

Other observations

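The transcripts of the subunit genes are short (median 659 bases in GENCODE vM21). The Spearman correlation of length and log2 fold change was 0.08 across 81 subunit genes and 0.01 across 15452 tested protein-coding genes, where genes share libraries and are no independent replicates. The 2623 tested protein-coding genes of at most 1000 bases had a median log2 fold change of 0.03, beside 0.13 for all 15452 and -0.21 for the subunit genes. The part of length in the values of the subunit genes was not tested beyond this.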
